A study of Mus musculus with 3 samples.

Results

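The TNF ligands, receptors and shedding genes described here are 10 genes chosen by name, out of 55536 annotated genes measured: the 5 ligand genes Tnf, Tnfsf9, Tnfsf10, Tnfsf12 and Tnfsf13b, the 4 receptor genes Tnfrsf1a, Tnfrsf1b, Fas and Ltbr, and the protease gene Adam17. Each symbol matched 1 gene of annotation M21. The RNA came from the cytosolic fraction of macrophages grown from C57BL/6J mouse bone marrow. All cells had received Lipid A, the part of bacterial lipopolysaccharide that Tlr4 senses, at 100 ng/ml for 12 hours, had then been kept without it for 12 hours, and had lastly been given 100 ng/ml again for 40 minutes. The 3 libraries, labelled biological replicates 1, 2 and 3, form 1 group. Untreated cells and cells treated once were not analysed here. The values therefore describe levels in 1 state and not responses to Lipid A. Sex and age were not collected, and all libraries carry the same donor label. Whether they came from separate animals is not known, so each SD measures the spread between these libraries, which may be technical.

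TNF superfamily ligands are mostly made as trimeric membrane proteins and act on receptors of a matching family on the same or neighbouring cells. Tnf, the best known of them, is cut from the macrophage surface by the metalloprotease Adam17 and then acts as a soluble cytokine; the same protease also sheds the receptors of Tnf. Macrophages are a main source of Tnf after contact with bacterial products, and its mRNA is controlled both at the promoter by NF-kB and in the 3' UTR by AU-rich elements that recruit decay factors such as Zfp36.

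Sequence from both regions of the Tnf gene is shown because Tnf was the most abundant of the 10 transcripts. The promoter of Tnf (RefSeq, build GRCm38.p6, chr17:35201958-35202257, minus strand, 250 bases before to 50 after the start site) is given with that of Tnfrsf1b (chr4:145246821-145247120, minus strand), the second most abundant. Capitals mark matches on either strand to the NF-kB-like motif, GGG and CC with any 5 bases between them, and to the TATA box motif TATAAA; matches of the first motif overlap one another in Tnfrsf1b.
Tnf: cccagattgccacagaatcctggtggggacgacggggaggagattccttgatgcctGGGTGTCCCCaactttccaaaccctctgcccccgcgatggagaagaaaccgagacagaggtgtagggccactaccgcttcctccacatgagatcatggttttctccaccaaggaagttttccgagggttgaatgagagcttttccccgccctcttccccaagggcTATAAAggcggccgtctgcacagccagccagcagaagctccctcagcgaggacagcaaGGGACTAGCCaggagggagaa
Tnfrsf1b: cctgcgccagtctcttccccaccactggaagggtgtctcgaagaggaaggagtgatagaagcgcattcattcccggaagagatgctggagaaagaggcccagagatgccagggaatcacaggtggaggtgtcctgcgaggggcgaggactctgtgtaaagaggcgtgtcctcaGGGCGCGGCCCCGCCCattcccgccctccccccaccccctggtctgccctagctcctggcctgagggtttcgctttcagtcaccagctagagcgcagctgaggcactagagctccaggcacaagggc
The Tnf window held 2 positions with the NF-kB-like motif, which start at -194 and 30 relative to the start site, and 1 TATA box motif at -29. The Tnfrsf1b window held 3 overlapping positions of the NF-kB-like motif and no TATAAA. Among 32851 promoter windows of the same length 50.8% held the NF-kB-like motif and 13.6% held TATAAA, so the first motif is common. A promoter window was found for 8 of the 10 genes, and 6 of those 8 held the NF-kB-like motif: Tnf, Tnfrsf1b, Tnfrsf1a, Fas, Ltbr and Adam17. The AP-1 motif TGANTCA, in 7.81% of windows, matched in Fas and Tnfsf13b, and the interferon response motif, a pair of GAAA with any 2 bases between them, in 3.44% of windows, matched in Tnfrsf1b and Tnfsf13b.

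In the 3' UTR of the leading Tnf transcript, Tnf-201, bases 437 to 466 (mm10, chr17:35199679-35199708, minus strand) were the stretch of 30 bases richest in the pentamer ATTTA, the core of AU-rich elements, marked in capitals.
Tnf: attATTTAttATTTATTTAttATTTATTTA
This stretch held 5 overlapping or adjacent copies of ATTTA and 4 of the longer motif TTATTTATT. Over its whole 3' UTR of 764 bases Tnf had 8 ATTTA and 5 TTATTTATT, searched on the transcript strand. That is 10.5 ATTTA per kb, a density that 1.12% of 8831 detected genes reached, against a median of 1.30 per kb over those genes. Tnfsf9 came next with 7.91 per kb from 2 ATTTA in 253 bases, and the other 8 genes had 2.00 per kb or fewer. TTATTTATT was present in the 3' UTR of 1 of the 10 genes, Tnf, and in 6.81% of detected genes. These are matches of letters and not measured sites of decay.

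Levels are given in TPM, a share of all transcripts that divides by transcript length so that genes can be set side by side. Detection required every library to reach 1 TPM, which 9 of the 10 genes did, as did 41.4% of 22028 protein-coding genes. The median level of the 10 genes was 4.77 on the log2(TPM + 1) scale, against 3.25 over the 9106 detected nuclear protein-coding genes. The libraries held 38197192, 46327891 and 38685666 expected counts on annotated genes in replicates 1, 2 and 3. In the gene table nuclear protein-coding genes took between 27.7% and 33.3% of TPM and 7SL RNA between 54.4% and 63.0%. The TPM of an mRNA therefore also moves with these shares. TPM was generally lower in the read-based transcript table, made from the reads without an alignment file: the median detected gene was shifted by -1.37, -1.10 and -1.29 on the log2(TPM + 0.1) scale, and the mean of Tnf was 252 TPM. The reason for this shift was not tested. 7SL RNA took 12.8%, 23.3% and 15.6% of read-based TPM in replicates 1, 2 and 3, so its share depends on the table. All 8 macrophage markers were detected, with a summed TPM between 4071 and 5638. Of the markers of other cells, none of 4 T and NK cell, 4 B cell, 3 dendritic cell and 4 stromal genes was detected, with summed TPM of at most 0.52 per list. From 4 neutrophil markers S100a8 was detected at 3.22 ± 0.888 TPM (SD, n = 3) while Ly6g was listed at 0, and among 3 endothelial markers Kdr was detected at 5.16 ± 2.59 TPM.

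**Figure D1:**
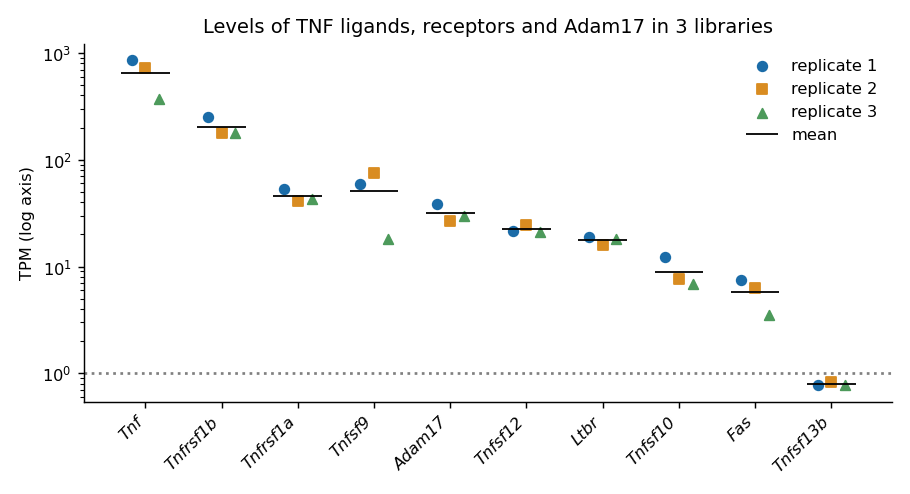
TPM on a log axis of the 10 genes in each of 3 libraries (points) with their mean (bar); the dotted line is a TPM of 1. Tnf lies between 370.4 and 855 TPM and Tnfsf13b, the only gene below the line, between 0.77 and 0.82.

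Among the ligands Tnf took most of the signal. Tnf (chromosome 17, 35199381 to 35202007, minus strand) had 855, 727 and 370.4 TPM in replicates 1, 2 and 3, a mean of 651 ± 251 (SD, n = 3). Replicates 1 and 2 were high and replicate 3 low. By mean TPM it ranked 37 of 22015 nuclear protein-coding genes, and it held 88.7% ± 1.51 of the summed TPM of the 5 ligand genes, between 87.1% and 90.1% in each library. The 3 genes nearest to Tnf in log2(TPM + 1) over the 3 libraries, by root mean square distance among 22014 genes, were Tpt1 at a distance of 0.20, the chemokine gene Cxcl10 at 0.30 and the ribosomal protein gene Rps29 at 0.32.

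Tnfsf9, the ligand that costimulates T cells through Tnfrsf9, came second among the ligands (chromosome 17, 57105325 to 57107757, plus strand). Its 3 libraries had 59.3, 74.5 and 18.0 TPM, a mean of 50.6 ± 29.2 (SD, n = 3), with replicate 3 far below the others. Tnfsf12, a ligand of Tnfrsf12a (chromosome 11, 69686250 to 69695849, minus strand), was even between libraries at 21.4, 24.45 and 20.9 TPM, a mean of 22.2 ± 1.93. The gene lies within Tnfsfm13, a same-strand gene at 5.44 ± 0.867 TPM that joins Tnfsf12 to its neighbour, so reads of shared exons could be counted for either.

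Tnfsf10, a ligand that triggers apoptosis through death receptors (chromosome 3, 27317028 to 27342427, plus strand), had 12.2, 7.64 and 6.81 TPM, a mean of 8.89 ± 2.91 (SD, n = 3), with replicate 1 the highest. Tnfsf13b, a survival factor for B cells (chromosome 8, 10006467 to 10039072, plus strand), had 0.77, 0.82 and 0.77 TPM from 66, 96 and 69 expected counts. It was present at low level in every library but below the threshold. Over nuclear protein-coding genes alone its TPM was between 2.31 and 2.92, so its place below 1 rests on the TPM total. Tnfsf12 exceeded it by 3.70 ± 0.09 on the log2(TPM + 1) scale (SD, n = 3), where the added 1 narrows the difference.

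Both receptors of Tnf were expressed, with Tnfrsf1b well above Tnfrsf1a. Tnfrsf1b, the receptor without a death domain (chromosome 4, 145213463 to 145246870, minus strand), had 249.8, 178 and 177 TPM, a mean of 202 ± 41.7 (SD, n = 3). Tnfrsf1a, the death-domain receptor (chromosome 6, 125349362 to 125362484, plus strand), had 53.6, 41.4 and 42.7 TPM, a mean of 45.9 ± 6.72. The values of these receptors did not overlap. Tnfrsf1b held 81.4% ± 0.886 of their summed TPM, and the log2 ratio of Tnfrsf1b to Tnfrsf1a was 2.20, 2.08 and 2.03, a mean of 2.10 ± 0.09 on the log2(TPM + 1) scale (SD, n = 3), the smallest SD among the 9 ratios computed. Tnf stood above both receptors together in each library, at 2.82, 3.32 and 1.68 times their summed TPM.

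Ltbr, the receptor of lymphotoxin (chromosome 6, 125306571 to 125313885, minus strand), had 18.9, 16.0 and 18.3 TPM, a mean of 17.7 ± 1.54 (SD, n = 3). Fas, a death receptor (chromosome 19, 34290666 to 34327772, plus strand), was the lowest of the 4 receptors at 7.43, 6.27 and 3.52 TPM, a mean of 5.74 ± 2.01, again lowest in replicate 3. Tnfrsf1a exceeded Ltbr by 1.32 ± 0.14 and exceeded Fas in every library, with a log2 ratio of Fas to Tnfrsf1a of -2.84 ± 0.38 on the log2(TPM + 1) scale. In the read-based table that last ratio was -2.26. Relative to the median gene Fas was higher there by 0.37 ± 0.20 on that log2(TPM + 0.1) scale, the largest such offset among the 10 genes, and none of the 10 genes differed by 1 or more, which 0.791% of detected genes did.

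Adam17 (chromosome 12, 21323509 to 21373632, minus strand) had 38.7, 26.65 and 29.7 TPM, a mean of 31.7 ± 6.29 (SD, n = 3). It exceeded Adam10, the related sheddase at 18.0 ± 1.96 TPM, by 0.77 ± 0.15 on the log2(TPM + 1) scale in 3 of 3 libraries. Tnf exceeded Adam17 by 4.25 ± 0.58 on that scale. The end of Adam17 overlaps the end of Iah1, on the opposite strand, at 10.6 ± 1.07 TPM, and whether the counting used strand is not given in the sources used here.

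Ordered by mean log2(TPM + 1), the 10 genes ran Tnf, Tnfrsf1b, Tnfrsf1a, Tnfsf9, Adam17, Tnfsf12, Ltbr, Tnfsf10, Fas and Tnfsf13b. Neighbours were called ordered where the difference had one sign in all libraries and its mean exceeded 2 SD. That held for 5 of 9 neighbouring pairs: Tnf over Tnfrsf1b by 1.62 ± 0.50, Tnfrsf1b over Tnfrsf1a, Ltbr over Tnfsf10 by 0.96 ± 0.36, Tnfsf10 over Fas by 0.56 ± 0.28 and Fas over Tnfsf13b by 1.87 ± 0.46 (log2, SD, n = 3). Tnfsf10 over Fas sat at the edge of the rule and was ordered in 1 of 8 alternative settings, whereas the pairs of Tnf, Tnfrsf1b and Tnfrsf1a were ordered in 8 of 8. For genes this abundant, several settings could hardly change the call. TPM over nuclear protein-coding genes alone multiplies a whole library by 1 factor, and sums over alignment-based transcripts nearly equalled the gene TPM. The 5 genes from Tnfrsf1a to Ltbr were not ordered from one neighbour to the next. Tnfrsf1a and Tnfsf9 changed places between libraries, with a difference of -0.14, -0.83 and 1.20, and by mean TPM Tnfsf9 was the higher one. No call rests on a p-value, because an exact two-sided sign-flip permutation test over 3 libraries cannot go below p = 0.25.

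Of the 10 genes, Tnf and Tnfsf9 varied most between the libraries. Here expected counts were normalised for library size and composition by the TMM method of edgeR and given as CPM, a share of the library's counts, a scale that compares libraries and not genes. Tnf had 1753, 1846 and 870.5 CPM in replicates 1, 2 and 3, so the highest library was 2.12 times the lowest. Tnfsf9 had 91.8, 143 and 31.8 CPM, a ratio of 4.48. In both genes replicates 1 and 2 lay above replicate 3. A ratio of 2 or more was found in 2 of the 10 genes, in 9.98% of 12752 genes kept by the filter on low counts and in 1.48% of the 9106 detected nuclear protein-coding genes. Without TMM the ratio of Tnf was 1.996, which leaves 1 of the 10 genes, and without replicate 3 none of them reached 2. The 4 further gene lists below hold 2, 7, 24 and 10 detected genes. Of these genes only Tnfsf15 and Traf1 also reached 2, with ratios of 2.63 and 2.01, the latter just above the threshold. Both were lowest in replicate 3, Tnfsf15 at 5.97, 3.04 and 1.97 TPM and Traf1 at 43.15, 23.46 and 18.46 TPM.

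**Figure D2:**
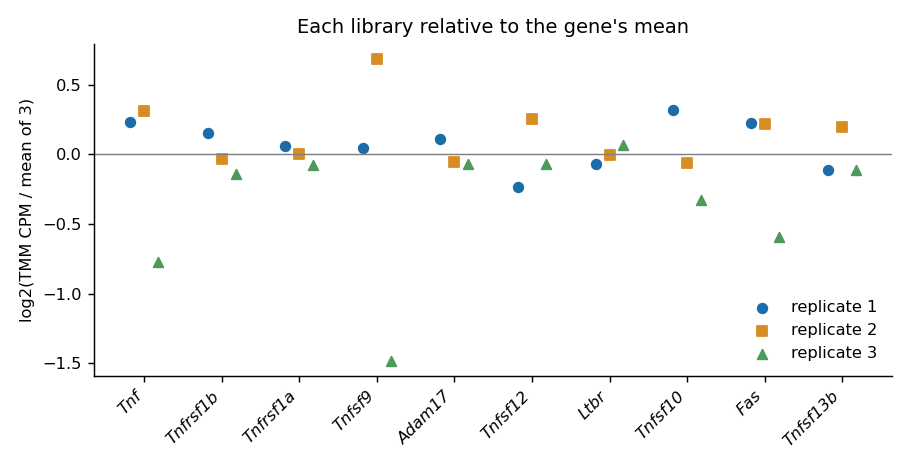
log2 of TMM-normalised CPM over the gene's mean of 3 libraries, for each gene and library (points). Replicate 3 lies at -0.78 for Tnf, -1.48 for Tnfsf9 and -0.59 for Fas, and near 0 for Tnfrsf1a, Ltbr and Adam17.

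Fas was also lowest in replicate 3, with 12.5, 12.4 and 7.05 CPM and a ratio of 1.77, and Tnfsf10 had 84.0, 64.7 and 53.8 CPM, a ratio of 1.56. The other 6 genes had ratios from 1.10 for Tnfrsf1a to 1.40 for Tnfsf12, beside a median of 1.18 over detected nuclear protein-coding genes. Replicate 3 held the lowest CPM of 7 of the 10 genes, against 41.2% of those detected genes, replicate 1 of 3, against 36.5%, and replicate 2 of none, against 22.3%. The highest CPM was in replicate 1 for 5 genes, against 22.9%, in replicate 2 for 4, against 52.4%, and in replicate 3 for 1, Ltbr, against 24.6%. Tnf and Tnfsf9 were also the 2 genes with the most ATTTA per kb of 3' UTR. Over the 187 detected genes with at least the density of Tnfsf9, which include Tnf and Tnfsf9 themselves, the median ratio was 1.24. Over the 8644 others it was 1.18. A ratio of 2 or more was found in 11 of the 187 genes (5.88%) and in 110 of the 8644 (1.27%). Among the markers of other cells, the endothelial gene Kdr was also lowest in replicate 3, at 7.55, 5.52 and 2.40 TPM, and set the summed TPM of its list of 3, at 9.41, 6.37 and 3.53. Pecam1 of that list was lowest in replicate 2, at 1.39, 0.72 and 1.01 TPM, and Cdh5 had at most 0.47 TPM. The 4 neutrophil markers summed to 2.59, 2.90 and 4.25 TPM, highest in replicate 3, with Ly6g at 0. The part of either cell type in the spread was not tested. The ATTTA densities were compared after the values had been seen. The cut was placed at Tnfsf9, which had prompted the comparison, and both Tnf and Tnfsf9 count among the 11 genes. The comparison is therefore not independent of them. The part of mRNA decay in the spread was not tested.

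**Figure D3:**
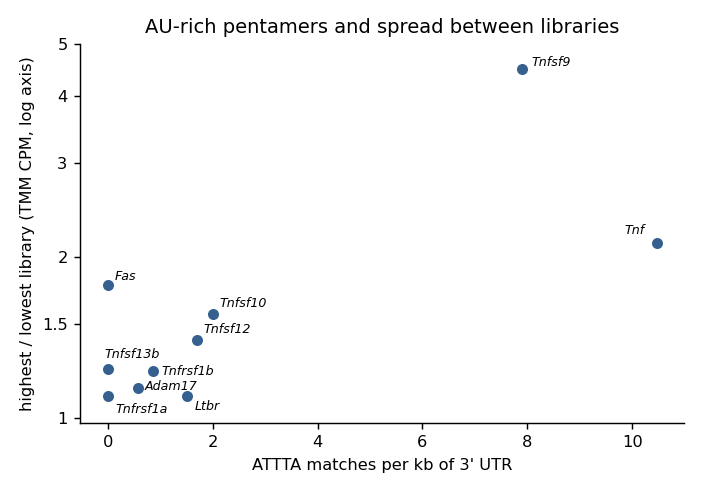
ATTTA matches per kb of 3' UTR of the leading coding transcript (x) and the ratio of highest to lowest library in TMM-normalised CPM (y, log axis) for the 10 genes. Tnf at 10.5 per kb and Tnfsf9 at 7.91 per kb are the points with a ratio above 2.

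Annotation M21 lists 39 transcripts for the 10 genes, and in 7 of the genes 1 coding transcript held over 90% of TPM in both transcript tables. For Tnf this was Tnf-201 at over 99% in each library, and Tnfsf9 has 1 annotated transcript. The leading transcript was the same in both tables for all 10 genes. By TPM, Adam17, Fas and Tnfsf13b were the genes with a mixed makeup. By share of alignment-based counts, 1 transcript held over 90% in 9 of the genes, with Adam17-201 at 90.4% and Fas-201 at 94.6%. Read-based counts gave 76.6% and 75.5% for these 2 transcripts, so the mixture depends on the measure and the table.

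Adam17-201, the full-length coding form, held 82.7%, 90.6% and 83.6% of Adam17 TPM in replicates 1, 2 and 3 of the alignment-based table. The 2 transcripts of Adam17 that retain an intron held 12.2%, 3.26% and 10.2%, so replicate 2 was low and the other two high. The read-based table gave 14.2%, 4.41% and 13.5% for the same transcripts. Over all detected genes the share of retained-intron transcripts was 4.68%, 3.45% and 4.91% in the alignment-based table, and the nuclear RNA Malat1 had 1445, 485 and 1726 TPM, both lowest in replicate 2 as well. The part of these in the Adam17 share was not tested. Adam17-202, a second coding form, was listed at 0 in each library of the alignment-based table and at 6.77% ± 2.99 in the read-based one, so its level depends on the table.

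Fas-201 held 86.9% ± 4.88 of Fas TPM in the alignment-based table and 59.0% ± 6.53 in the read-based one (SD, n = 3). Shares that were higher in the read-based table were those of a second coding form, Fas-202, and of the noncoding Fas-205. Fas-202 had 7.89% ± 2.59 and 13.7% ± 2.00, and Fas-205 had 3.21% ± 2.93 and 16.8% ± 3.09. So was the share of Fas-204, a nonsense-mediated decay form, at 1.998% ± 0.489 and 10.2% ± 5.01. Fas-202 and Fas-205 have 532 and 509 bases and at most 17.05 and 8.34 alignment-based counts in a library, so their shares are imprecise. Tnfsf13b was led by Tnfsf13b-205, which is annotated as a target of nonsense-mediated decay, at 37.9% ± 10.1 in the alignment-based table and 53.3% ± 7.17 in the read-based one. Its transcripts with a retained intron held another 34.0% ± 12.2 and 19.1% ± 4.07, so coding transcripts held the smaller part of the low level of Tnfsf13b. With fewer than 100 counts on the gene in each library these shares are imprecise.

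**Figure D4:**
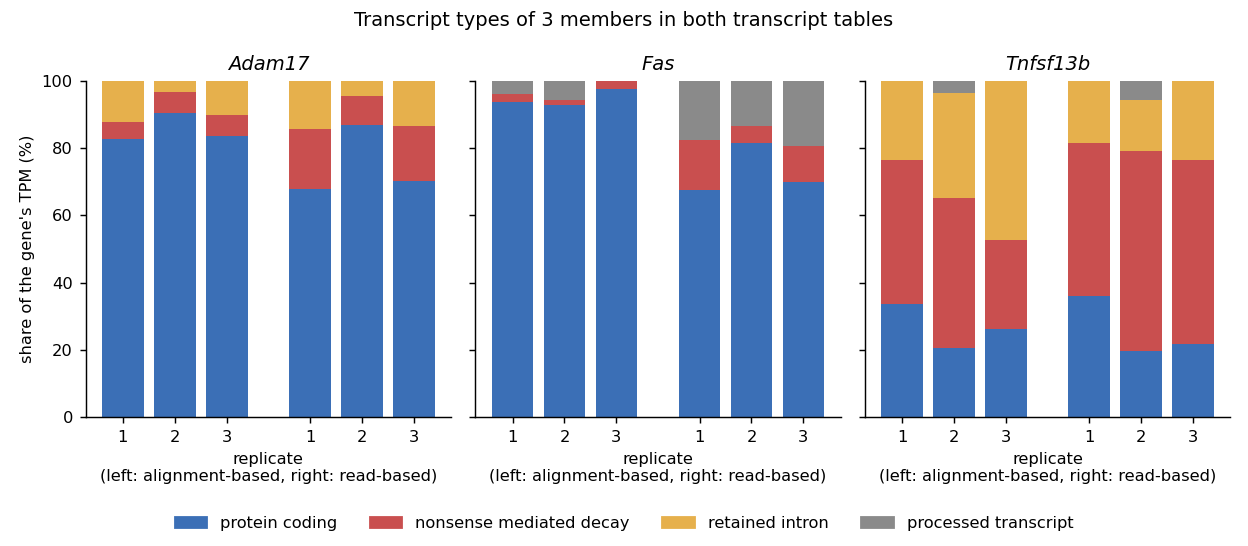
Share of each gene's TPM (%) by transcript type for Adam17, Fas and Tnfsf13b in replicates 1, 2 and 3 of the alignment-based (left bars) and read-based (right bars) tables. Coding transcripts lead for Adam17 and Fas in every bar, while for Tnfsf13b the transcripts annotated for nonsense-mediated decay or with a retained intron hold the larger part.

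Several of the 10 genes were present with little RNA of their known partner. Tnfrsf9, the receptor of Tnfsf9, had 0.41, 0.26 and 0.23 TPM, and Tnfrsf12a, the receptor of Tnfsf12, had 1.02, 0.34 and 0.38. Tnfrsf10b, a receptor of Tnfsf10, had 0.277 ± 0.0569 TPM (SD, n = 3). Tnfrsf22 and Tnfrsf23, decoy receptors of Tnfsf10, had 0.693 ± 0.220 and 1.78 ± 0.504 TPM, and Tnfrsf23 was detected. Unlike Tnf, the ligand of Tnfrsf1a and Tnfrsf1b, the ligand genes of the other 2 receptors were low. Fasl, the ligand of Fas, had at most 0.01 TPM, and of the ligands of Ltbr, Ltb had 0.45 ± 0.104 TPM, Lta 0.157 ± 0.0777 and Tnfsf14 0.0433 ± 0.0153. Of the 3 receptors of Tnfsf13b, which itself had 0.787 ± 0.0289 TPM, Tnfrsf13b had 13.9 ± 1.37 TPM, while Tnfrsf13c had at most 0.01 TPM and Tnfrsf17 at most 0.02 TPM. These partner genes were picked for their known pairing after their values had been seen. Low values among them also rest on the TPM total, as for Tnfsf13b.

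Of the 13 other ligand genes of the superfamily 2 were detected, Tnfsf13 at 3.70 ± 0.855 TPM and Tnfsf15 at 3.66 ± 2.07 TPM (SD, n = 3), and 11 were below 1 TPM in every library. Tnfsf8 at 0.723 ± 0.287 TPM and Ltb were the next, and Cd40lg and Eda were listed at 0 with Cd70 at most 0.04 TPM. The list's median was 0.06 (log2), against 0.23 over all protein-coding genes, of which 41.4% were detected. With TPM over nuclear protein-coding genes alone, a scale that raises every gene, 4 of the 13 were detected. The share of all protein-coding genes was not computed on that scale, so this count has no background beside it.

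From 23 other receptor genes of the family 7 were detected and 14 were below 1 TPM in every library, with a median of 0.35 (log2). Over all protein-coding genes 9118 of 22028 were detected and 12401 were below 1 TPM in every library, shares near those of this list. The count of 7 became 10 with TPM over nuclear protein-coding genes alone and 5 in the read-based table, again without a matching share of all genes. Tnfrsf14, which binds Tnfsf14 and lymphotoxin, led at 71.5 ± 18.3 TPM (SD, n = 3), above Tnfrsf1a in 3 of 3 libraries. Cd40, which T cells engage through Cd40lg, had 21.7 ± 6.30 TPM, and Tnfrsf11a, the receptor that drives osteoclast formation, had 19.8 ± 2.73 TPM. Among those below 1 TPM, Cd27 had at most 0.36 TPM and Eda2r at most 0.09 TPM, and Edar was listed at 0.

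Each of 24 genes that act just below the receptors was detected, beside 41.4% of all protein-coding genes. Their median level was 3.50 on the log2(TPM + 1) scale, near the 3.25 over detected nuclear protein-coding genes. Cflar, an inhibitor of caspase-8 activation, led at 123 ± 32.8 TPM (SD, n = 3), followed by the ubiquitin ligase gene Birc3 at 54.5 ± 14.8 TPM, the necroptosis effector gene Mlkl at 36.3 ± 3.99 TPM and Casp8 itself at 35.3 ± 2.96 TPM.

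Of 15 genes of shedding and intramembrane cleavage 10 were detected, beside 41.4% of all protein-coding genes. Their median was 4.11 (log2), against 0.23 over all protein-coding genes and 3.25 over detected nuclear protein-coding genes. Sppl2a, a protease that cuts the membrane stub left after Tnf shedding, had 64.7 ± 15.2 TPM (SD, n = 3), the inhibitor gene Timp2 62.9 ± 4.76 TPM, Adam15 52.4 ± 7.85 TPM and Adam8 38.8 ± 3.36 TPM. Timp3, the tissue inhibitor that blocks Adam17, was near 0 at 0.02, 0.02 and 0.04 TPM, and Timp4 was listed at 0. The iRhom genes, whose products carry Adam17 to the cell surface, were unequal: Rhbdf2 had 22.4, 12.6 and 15.1 TPM and Rhbdf1 0.22, 0.09 and 0.09 TPM, without overlap.

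**Figure D5:**
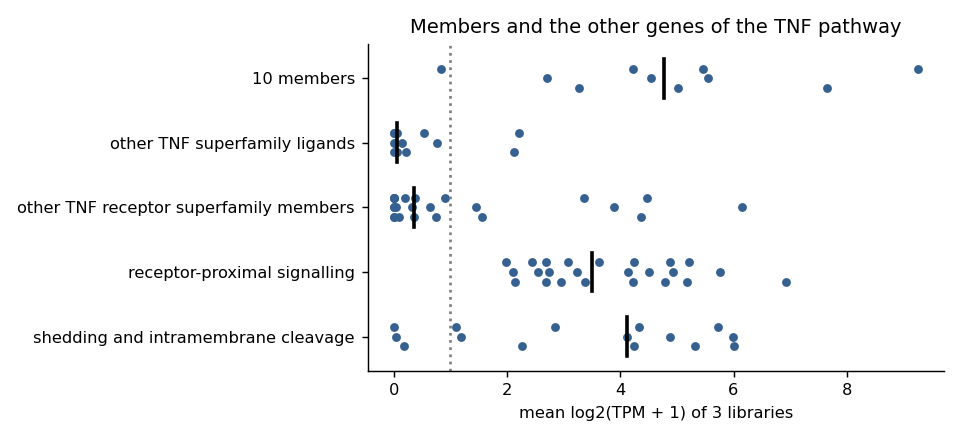
Mean log2(TPM + 1) over 3 libraries of the 10 genes and of the genes in 4 further lists (points), with each list's median (bar); the dotted line is a TPM of 1. All 24 signalling genes lie right of the line, and 11 of 13 other ligands lie left of it.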

How the data were processed

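Total RNA depleted of ribosomal RNA was sequenced from the cytosolic fraction of 3 macrophage libraries, which form 1 group. The deposited tables hold, per gene and per transcript, expected counts, TPM and FPKM (alignment-based), and, per transcript, estimated counts and TPM (read-based). The deposited text files that accompany them name build mm10 and annotation M21; aligner, quantifier versions and strand setting: not given in the sources used here. Gene TPM was described on the log2(TPM + 1) scale, with FPKM as an alternative. Expected counts were filtered with filterByExpr and scaled by TMM in edgeR 4.0.16 (R 4.3.3); DESeq2 1.42.0 size factors were an alternative. The spread calculation was tested on simulated data. With 1 group there was no contrast to test, and no model was fitted across genes; spreads are SD over 3 libraries. No pair of libraries agreed within counting noise (chi-square per degree of freedom of at least 43.5), so none was treated as the same library deposited again.

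The 10 genes and all lists were chosen with earlier results of these data known. Named genes were the 10, those of the ratios, in each list the 4 highest by mean TPM and the first 3 by alphabet below 1 TPM in every library, and the 3 genes nearest to Tnf. Partner genes, overlapping genes, markers, Malat1, Rhbdf2, Traf1, and the ATTTA comparison were picked after values had been seen. Motifs were searched in RefSeq promoter windows (GRCm38.p6) and M21 transcripts. Alternatives were other scalings, tables, thresholds and pseudocounts, and leaving out each library.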

Additional observations from a re-analysis of the deposited data

How the results depend on the processing

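Of the recomputed counts, shares and gene ratios, 137 values stayed within the spread between libraries or within 1.5 times the count and 17 moved further. No gene ratio of these changed sign. Among neighbours in the order of levels, which were not called ordered, Tnfsf9 over Adam17 went from 0.45 to -0.04 without replicate 2 and Tnfrsf1a over Tnfsf9 from 0.07 to -0.49 without replicate 3. The log2 ratio of Tnfsf12 to Tnfsf13b, 3.70, became 4.65 with a pseudocount of 0.1, 4.38 with TPM rescaled to the total of nuclear protein-coding genes, 4.02 with FPKM and 2.93 in the read-based table. In that table the ratio of Fas to Tnfrsf1a was -2.26. Genes with a 2-fold spread numbered 1 with CPM without TMM and 4 at 1.5-fold, and between 0 and 2 with 1 library left out, 0 without replicate 3. Genes lowest in replicate 1 numbered 1 in gene TPM and between 2 and 5 with 1 library left out. Genes lowest in replicate 2 numbered 2 with CPM without TMM, 3 in gene TPM and between 1 and 5 with 1 library left out. Other ligands detected numbered 0 at a TPM of 5, 4 with rescaled TPM and 1 in the read-based table. The matching shares of all protein-coding genes were not computed. Apart from the pseudocount, and from the library left out, which also leaves fewer values, the cause of these moves was not tested. Between 8 and 10 of the 10 genes were detected under other thresholds and tables. The level of each gene was recomputed as an alternative added after seeing the data. All 10 levels moved beyond their SD both with rescaled TPM (Tnf to 2166) and in the read-based table (Tnf to 252), and none did with 1 library left out. Rescaling multiplies every gene of a library by 1 factor, and TPM was generally lower in the read-based table. These moves are therefore not particular to the 10 genes. No paired analysis was possible because there is only 1 group. Depth limits Tnfsf13b most, with 66 to 96 expected counts per library.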
